A study of Mus musculus with 48 samples.

Results

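The 39 genes described here are the MHC and antigen presentation genes of the mouse, taken from the 20702 genes in the authors' table of iris-subtracted expression. A gene was a member if its symbol began with H2- (29 genes) or if it was *B2m*, *Cd74*, *Ciita*, *Nlrc5*, *Tap1*, *Tap2*, *Tapbp*, *Psmb8*, *Psmb9* or *Psmb10*, so the rule used names within that table, and 16 further H2- symbols of the annotation were outside it. The set held 2 classical class I heavy chains, the liver-type class I gene *H2-Q10*, 17 other class I genes, 10 class II genes (*Cd74* included), 2 transactivators, 4 genes of the light chain and peptide loading and 3 immunoproteasome subunits. In the GENCODE annotation 6 of them were pseudogenes, and 34 of the 39 lay on chromosome 17, between positions 33915899 and 37483552 of GRCm38. A mean of at least 1 TPM (the transcript level scaled for gene length and sequencing depth) was reached before subtraction in some group by 37 members, all but *H2-T3* and *H2-Eb2*.

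The study placed liver spheroids in the anterior chamber of the mouse eye, where they engraft on the iris. RNA was sequenced in bulk from 5 explants (engrafted spheroids with the iris around them, dissected 2 months post-tx), 3 naïve irises without a graft, 3 pieces of endogenous liver, 3 preparations of hepatocyte-enriched primary cells and 2 samples of spheroids that had stayed in culture. All 16 were labelled wild-type albino C57BL/6N, so graft and host carried the same strain label, and the mice were at least 3 months old. The paper names its albino mice as Albino B6/J, which differs from that label. The starting cells came from collagenase perfusion and density separation and were enriched, not pure. The labels did not tie samples to animals, so the p-values measure the spread between these samples, and each sample was the sum of 3 technical libraries.

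MHC class I molecules pair a heavy chain with beta-2 microglobulin and show peptides from inside the cell to CD8 T cells and NK cells. The peptides are cut by the proteasome, whose interferon-induced form carries *Psmb8*, *Psmb9* and *Psmb10*, pumped into the endoplasmic reticulum by *Tap1* and *Tap2*, and fitted with the help of tapasin (*Tapbp*). MHC class II molecules are made mainly by macrophages, dendritic cells and B cells, are escorted by the invariant chain *Cd74*, receive their peptides with the help of H2-DM and show them to CD4 T cells. *Ciita* switches on the class II genes and *Nlrc5* the class I genes, both through proteins bound to short conserved boxes in the promoters. The liver is known for a secreted class I molecule, *H2-Q10*, made by hepatocytes.

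Promoter windows of 250 bases before and 50 after the start were found for 27 members in the RefSeq table for GRCm38 (29 windows). They are shown for members whose levels parted between groups, so that the boxes can be read beside the values: class II genes *H2-Aa* and *H2-Eb1*, classical *H2-K1*, the light chain *B2m* and liver-type *H2-Q10*. Capitals mark a TGANG (X2-like) followed 10 to 30 bases later by ATTGG (the Y box) in the direction of the gene, TTTCACTT (a sequence of the interferon response type) on either strand, and GGGATTCCC (an NF-kappa-B type site, enhancer A) on either strand. In *H2-Eb1* overlapping copies of TGATG both met the first rule.
H2-Aa, chr17:34287774-34288073, minus strand: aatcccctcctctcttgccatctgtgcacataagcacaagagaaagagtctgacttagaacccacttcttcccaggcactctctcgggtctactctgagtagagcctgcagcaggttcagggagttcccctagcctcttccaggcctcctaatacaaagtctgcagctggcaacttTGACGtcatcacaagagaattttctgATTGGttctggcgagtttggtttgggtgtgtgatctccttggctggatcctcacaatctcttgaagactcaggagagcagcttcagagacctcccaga
H2-Eb1, chr17:34305617-34305916, plus strand: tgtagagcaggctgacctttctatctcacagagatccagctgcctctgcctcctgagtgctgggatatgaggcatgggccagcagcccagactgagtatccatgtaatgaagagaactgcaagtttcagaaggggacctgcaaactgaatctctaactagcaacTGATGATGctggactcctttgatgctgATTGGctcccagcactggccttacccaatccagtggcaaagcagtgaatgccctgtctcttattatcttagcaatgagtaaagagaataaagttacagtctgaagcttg
H2-K1, chr17:34000284-34000583, minus strand: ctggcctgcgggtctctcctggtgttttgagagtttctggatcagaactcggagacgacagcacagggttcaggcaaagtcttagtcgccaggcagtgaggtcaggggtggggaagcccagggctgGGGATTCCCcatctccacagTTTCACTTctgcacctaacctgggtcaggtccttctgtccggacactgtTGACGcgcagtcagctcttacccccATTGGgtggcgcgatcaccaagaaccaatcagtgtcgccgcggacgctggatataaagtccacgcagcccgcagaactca
B2m, chr2:122147437-122147736, plus strand: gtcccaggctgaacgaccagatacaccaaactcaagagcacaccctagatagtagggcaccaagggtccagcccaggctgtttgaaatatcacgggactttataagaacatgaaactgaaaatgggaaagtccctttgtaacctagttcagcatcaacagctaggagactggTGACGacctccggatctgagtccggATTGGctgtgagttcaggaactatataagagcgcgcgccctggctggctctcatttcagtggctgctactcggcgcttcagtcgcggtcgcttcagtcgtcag
H2-Q10, chr17:35469839-35470138, plus strand: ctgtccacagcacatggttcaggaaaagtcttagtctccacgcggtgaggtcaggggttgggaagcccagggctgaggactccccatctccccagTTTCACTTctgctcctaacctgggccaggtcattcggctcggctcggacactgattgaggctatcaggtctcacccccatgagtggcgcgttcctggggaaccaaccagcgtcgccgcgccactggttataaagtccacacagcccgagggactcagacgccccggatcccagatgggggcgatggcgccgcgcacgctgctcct

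The pair of TGANG and ATTGG was present in 13 of the 27 genes, including 6 of 8 class II genes, *H2-K1*, *H2-D1* and *B2m*, while 2.58% of all 32851 promoter windows held it. *H2-DMa* was 1 of the class II genes without it, but its windows ended at positions 34122881 and 34125567. The gene as counted started at 34135182, so these windows did not cover that start. The gap between the boxes was 21 bases in *H2-Aa*, 19 in *H2-Eb1* and 20 in *H2-K1* and *B2m*, counted from the nearest copy. TTTCACTT was present in 9 genes, all class I (1.60% of all windows), and GGGATTCCC in *H2-K1*, *H2-D1*, *H2-Q6* and *H2-Q7* (0.353% of all windows). The *H2-Q10* window held TTTCACTT and neither of the other 2 searched. These letters were chosen after the sequences had been read, and a match is a description only.

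Total counts ran from 5449589 to 6789648 in explants, 4596550 to 4881817 in irises, 3523171 to 3871404 in livers, 2718518 to 3573075 in hepatocyte preparations and 3247327 to 3447643 in spheroids. Summed over 8 hepatocyte markers the level was 4362 to 6117 TPM in explants, 1022 to 1170 TPM in irises and 10702 to 11736 TPM in livers. The 6 iris and ciliary epithelium markers summed to 335 to 514 TPM in explants, 519 to 553 TPM in irises and 8.32 to 9.73 TPM in livers. The iris share that the authors subtracted was 82, 68, 81, 72 and 59% for explants 1, 2, 4, 5 and 6. What remained was divided by the share that is not iris, so values after subtraction are also scaled up. Liver 1 stood apart from livers 2 and 3 in class II and lymphocyte transcripts, so calls of members against the livers are also described without it. Reads that fit several near-identical class I genes were not counted, and reads over overlapping genes were counted for each, so values of the H2-Q, H2-K and H2-T paralogs, and of the overlapping *Tap1* and *Psmb9*, are uncertain.

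A gene was called when its adjusted p was under 0.05 and its level differed by a log2 value above 1. In naïve tissue the irises carried less class I than the livers. Of 28 members tested 18 were called lower, where 22.1% of all 15459 genes were, and 2 were called higher (*H2-M3* and *H2-DMb1*), where 29.8% of all genes were. Among the 18, *H2-DMa* lost its call without liver 1. The median log2 difference was -1.43 over the members and 0.11 over all genes. Scaled by raw library totals, the median over all genes moved to 0.80, the members to 10 lower and 3 higher, and all genes from 4606 higher and 3422 lower to 6803 and 1973.

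Engrafted spheroids with their iris carried more class II, and more of several class I genes, than naïve iris. Of 30 members tested, 13 were called higher, where 6.16% of all 16764 genes were, and 0 lower, where 0.316% of all genes were (edgeR; 21 higher and 0 lower at an unadjusted p under 0.05, 17 higher and 0 lower by DESeq2, 3 higher and 0 lower by limma-voom). The 13 were *H2-Q10*, *H2-Q1*, *H2-Q6*, *H2-Q7*, *H2-T23*, *Cd74*, *H2-Aa*, *H2-Ab1*, *H2-DMa*, *H2-Eb1*, *Ciita*, *Nlrc5* and *Tap1*. With any of the 3 irises left out 2 were called (*H2-Q10* and *H2-Q1*), and without explant 2 there were 5. The median log2 difference was 1.26 over the 30 members and 0.01 over all genes.

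Against livers, with the iris still in the sample, 10 of 35 members tested were called lower in explants (19.7% of all 16506 genes were) and 2 higher, again *H2-M3* and *H2-DMb1* (28.9% of all genes were). The 10 lower genes were all of class I or its light chain: *H2-D1*, *H2-K1*, *H2-Q10*, *H2-Q1*, *H2-Q5*, *H2-Q6*, *H2-Q7*, *H2-T22*, *H2-T23* and *B2m*. Without liver 1 the calls of *H2-Q1* and *H2-Q5* were lost. The median over all genes was 0.17, and on raw library totals it was 0.80, with 3 members lower and 5 higher, and with 1715 of all genes lower and 7094 higher in place of 3248 and 4772. Of 30 members tested in both comparisons, 0 were called higher in explants than in irises and also higher than in livers (edgeR; 85 of 16231 genes, 0.524%, were; 0 members by DESeq2 and 0 by limma-voom). Without liver 1 that number was 4, namely *H2-Aa*, *H2-Ab1*, *H2-Eb1* and *Ciita*, and the members called higher than in livers went from 2 to 6. The 2 comparisons share the 5 explants.

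**Figure D1:**
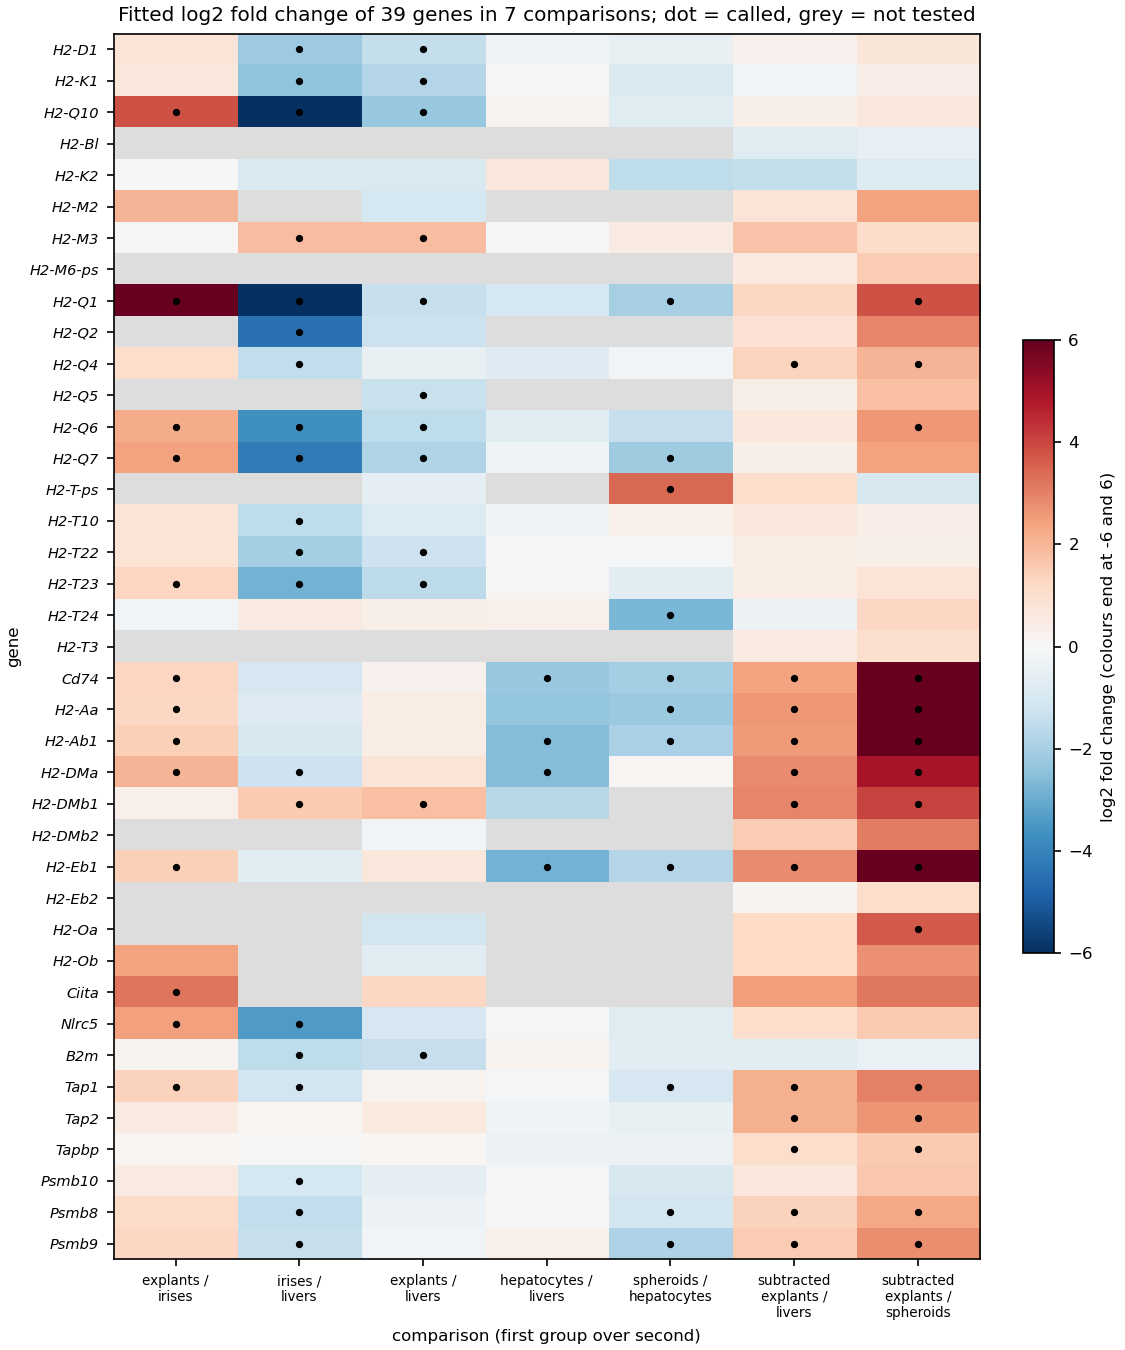
Fitted log2 fold change (colour, blue lower and red higher in the first group named) of the 39 genes (rows) in 7 comparisons (columns), with a dot where the gene was called and grey where it was not tested. Against irises, 5 class II genes are red and called, and after subtraction of the iris 6 class II genes are red and called against livers.

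With the iris share subtracted from each explant, 12 of 39 members were called higher than in livers (10.5% of all 22878 genes were) and 0 lower (2.82% were; limma; 15 higher and 0 lower at an unadjusted p under 0.05). The 12 were 6 class II genes (*Cd74*, *H2-Aa*, *H2-Ab1*, *H2-Eb1*, *H2-DMa* and *H2-DMb1*), *Tap1*, *Tap2*, *Tapbp*, *Psmb8*, *Psmb9* and *H2-Q4*. The median over all genes was itself 0.59 above the livers, and that over the members 1.03. Here and against spheroids the iris mean and the iris shares were treated as exact. Their error is therefore in neither the SE nor the p-values of subtracted explants. With the values as deposited 5 members were called, and without liver 1 there were 9. Without liver 2, and also without liver 3, 4 were called: *Cd74*, *H2-DMa*, *Tap1* and *Tap2*.

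Against in vitro spheroids 15 of the 39 members were called higher in the subtracted explants (4.37% of all 22706 genes were) and 0 lower (0.951% were; limma; 25 higher and 0 lower at an unadjusted p under 0.05). They were the 12 genes just named with *H2-Q1*, *H2-Q6* and *H2-Oa*, and the same subtracted explants enter both comparisons. The deposited values gave 8 calls, and leaving out spheroid sample 1 or 2 gave 7. Without explant 2 there were 9. The median was 2.04 over the members and 0.55 over all genes.

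Class II was lower in isolated hepatocyte preparations than in livers, and *Cd74*, *H2-Aa*, *H2-Ab1* and *H2-Eb1* were lower again in cultured spheroids. *H2-DMa* and *H2-DMb1* were not lower there, at means of 4.56 and 4.62 TPM in preparations and 6.14 and 4.73 TPM in spheroids. In hepatocyte preparations 4 of 27 members were called lower than in livers, *Cd74*, *H2-Ab1*, *H2-DMa* and *H2-Eb1* (2.31% of all 12236 genes were), and 0 higher (0.409% were; edgeR; 0 at an unadjusted p under 0.05, 0 by DESeq2 and 0 by limma-voom). By limma-voom 0 were called lower, and by edgeR 0 without liver 2, without hepatocyte preparation 2 or without preparation 3. Without liver 1 the 4 calls stayed. In spheroids 10 of 27 were called lower than in the preparations (9.11% of all 12247 genes were) and 1 higher, the pseudogene *H2-T-ps* (8.13% were). The 10 were *Cd74*, *H2-Aa*, *H2-Ab1*, *H2-Eb1*, *H2-Q1*, *H2-Q7*, *H2-T24*, *Tap1*, *Psmb8* and *Psmb9*. On raw library totals 8 were called lower, with 808 of all genes lower and 1531 higher in place of 1116 and 996.

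Among the class II genes *Cd74*, the invariant chain, had the highest group mean in all 5 groups. Its level was 874, 1085, 563, 779 and 1341 TPM in explants 1, 2, 4, 5 and 6, 440.5, 427 and 368 TPM in irises, 815, 273 and 271 TPM in livers, 92.4, 82.8 and 80.99 TPM in hepatocyte preparations and 30.2 and 21.7 TPM in spheroids. All 5 explants lay above all 3 irises, liver 1 lay among the explants and livers 2 and 3 lay below the irises. The log2 difference between explants and irises was 1.29 ± 0.28 (SE, edgeR, adjusted p = 0.0185). In bulk RNA, more cells of a type and more RNA per cell cannot be told apart.

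The class II alpha chain *H2-Aa* measured 399, 552, 256, 384 and 695 TPM in the explants and 218, 233 and 175 TPM in the irises. In livers it was at 388, 92.4 and 108 TPM, and in spheroids at 10.1 and 8.59 TPM. Its partner *H2-Ab1* ran from 252 to 763 TPM in explants and from 167 to 208 TPM in irises, and *H2-Eb1*, a beta chain, from 298 to 977 TPM and from 206 to 278 TPM. Explants and irises did not overlap for any of these 3 genes. The log2 differences were 1.26 ± 0.33, 1.45 ± 0.36 and 1.45 ± 0.38 (SE, edgeR, adjusted p = 0.0359, 0.0316 and 0.0359). Explant 6 was highest, explant 2 next and explant 4 lowest for each chain.

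**Figure D2:**
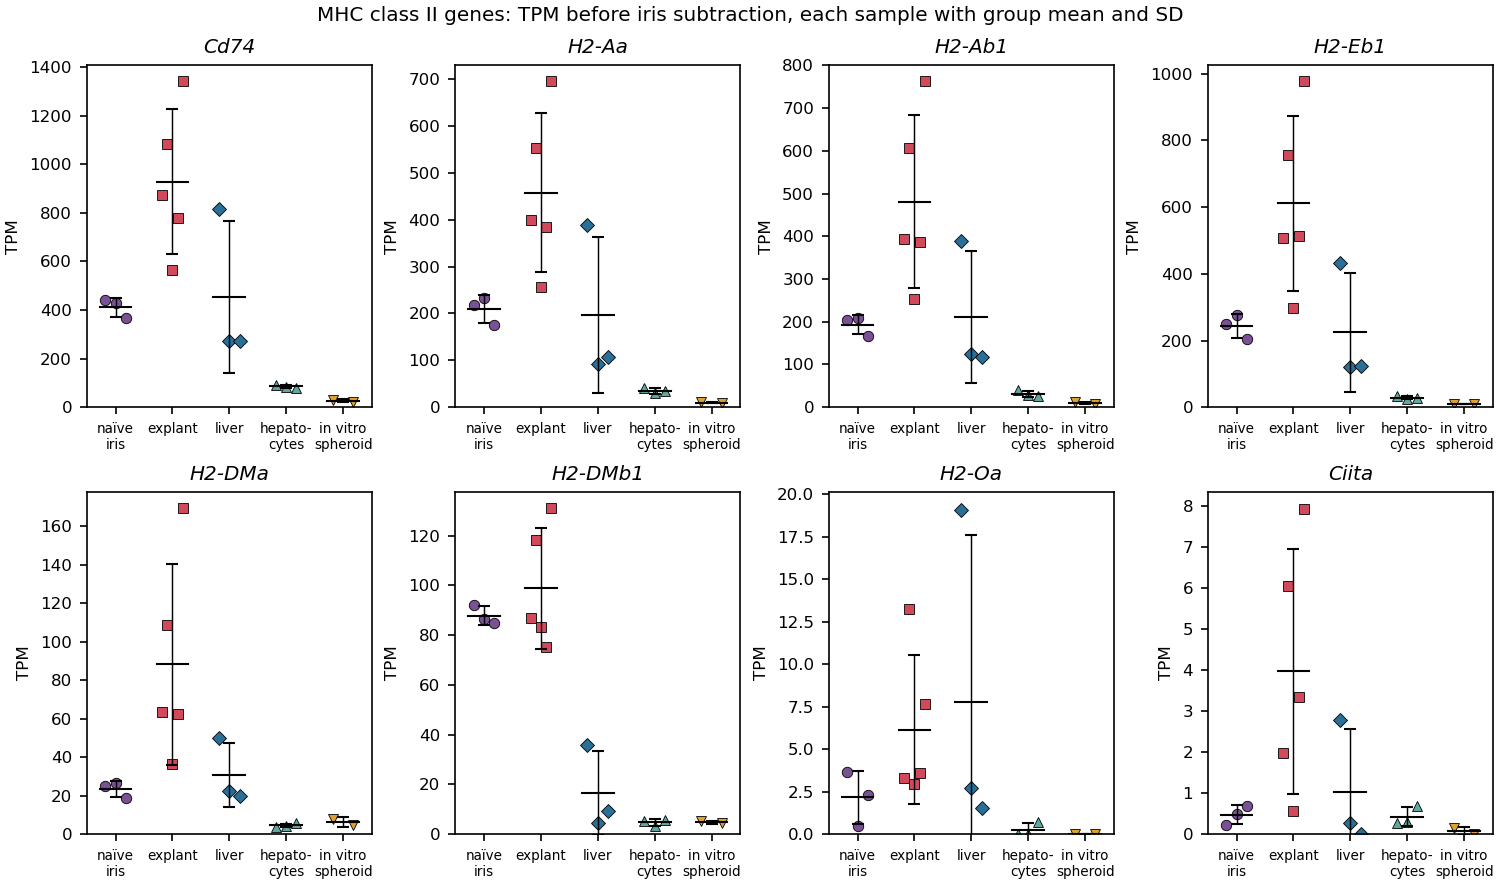
TPM before iris subtraction (linear vertical axes) of 7 class II genes and *Ciita* in each sample, by group (horizontal axis), with the group mean as a bar and the SD as whiskers. Explant 6 reaches 1341 TPM for *Cd74*, and liver 1, at 815 TPM, stands away from livers 2 and 3.

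The chaperones that load class II parted from each other. *H2-DMa* went from 24.9, 26.6 and 18.9 TPM in irises to 63.7, 109, 36.3, 62.6 and 169.6 TPM in explants (log2 difference 2.05 ± 0.52, SE, edgeR, adjusted p = 0.0334). *H2-DMb1*, which encodes a beta chain of that dimer, lay at 92.1, 86.4 and 84.96 TPM in irises and 86.9, 118, 83.1, 75.3 and 131 TPM in explants, and the groups overlapped (log2 difference 0.28 ± 0.22, adjusted p = 0.443). The level of *H2-DMb1* divided by that of *H2-DMa* was 3.71, 3.25 and 4.51 in irises, 1.36, 1.09, 2.29, 1.20 and 0.773 in explants and 0.712, 0.191 and 0.474 in livers. The order was irises, explants, livers, and neither pair of neighbours overlapped; the difference of the 2 responses was not tested.

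*H2-Oa* and *H2-Ob*, which form the inhibitor of DM, and *H2-DMb2* were low throughout, with a highest value of 19.1 TPM for *H2-Oa* in liver 1. *H2-Oa* was at 3.31, 13.2, 2.97, 3.59 and 7.64 TPM in explants, 3.65, 0.488 and 2.31 TPM in irises and 0 in both spheroid samples, below the subtracted explants (log2 difference 3.70 ± 0.81 on the log2 of TPM plus 1, SE, limma, adjusted p = 0.0383). This call was lost without explant 1, 2, 5 or 6, and with the values as deposited. *H2-Ob* ran from 0.619 to 4.22 TPM in explants and 0.19 to 0.962 TPM in irises, with an adjusted p of 0.0529.

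After the iris share was subtracted, *Cd74* stood at 2978, 2515, 1206, 1724 and 2678 TPM in explants, above all 3 livers (log2 difference 2.42 ± 0.42, SE, limma, adjusted p = 0.0068). *H2-Ab1* then stood at 1312, 1487, 506, 888 and 1582 TPM (log2 difference 2.57 ± 0.48, adjusted p = 0.00921). *H2-DMa* stood at 247, 290.2, 91.002, 163 and 379.9 TPM (log2 difference 2.86 ± 0.49, adjusted p = 0.0068). Explant 4, whose deposited column did not follow the formula used for the other 4, was lowest for each. Leaving out liver 1, which was the closest to the explants, kept the 6 class II calls. Without liver 2, without liver 3 or with the values as deposited, only the calls of *Cd74* and *H2-DMa* among them stayed.

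Isolated and cultured cells held the least class II of the 5 groups. *H2-Eb1* was at 33.1, 24.2 and 26.6 TPM in hepatocyte preparations and at 431, 121 and 124 TPM in livers, a log2 difference of -2.85 ± 0.51 (SE, edgeR, adjusted p = 0.0354). Spheroids had 10.3 and 10.2 TPM of it, lower again (log2 difference -1.77 ± 0.34, adjusted p = 0.00888). Subtracted explants exceeded spheroids by 6.88 ± 0.50 for *H2-Eb1* and by 6.31 ± 0.36 for *Cd74* on the log2 of TPM plus 1 (SE, limma, adjusted p = 0.000582 and 0.000472).

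Class II moved with macrophage transcripts across the tissues and apart from them in culture. Summed over 8 macrophage markers the level was 966, 1735, 816, 1174 and 2052 TPM in explants, 616, 576 and 558 TPM in irises and 811, 329 and 403 TPM in livers. The 10 class II genes summed to 2335, 3253, 1495, 2211 and 4099 TPM, to 1235, 1260.3 and 1024 TPM and to 2141, 643 and 654 TPM in the same order. Explants and irises did not overlap in either sum, and liver 1 had the highest liver value in both. For each TPM of macrophage markers there were thus 1.83 to 2.42 TPM of class II in explants, 1.83 to 2.19 TPM in irises and 1.63 to 2.64 TPM in livers, and the 3 groups overlapped. Hepatocyte preparations had 0.975 to 1.12 TPM.

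The 2 spheroid samples held 489 and 395 TPM of macrophage markers, more than the preparations at 155 to 208 TPM, and 511 and 469 TPM of the 5 Kupffer cell markers, more than any liver (204 to 371 TPM). Their class II sum was 75.7 and 57.8 TPM, a ratio of 0.155 and 0.146, below every other sample. In spheroids against preparations the macrophage gene *Lyz2* was called higher (log2 difference 1.24 ± 0.25, SE, edgeR, adjusted p = 0.0105), and so was *Ctss*, the protease that trims the invariant chain (1.53 ± 0.21, adjusted p = 0.00216), while *Cd74* was called lower (-2.05 ± 0.20, adjusted p = 0.000756).

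Kupffer cell markers summed to 3.97 to 62.8 TPM in explants and 0.952 to 2.38 TPM in irises, and *Clec4f*, which defines those cells, was at 0.661, 3.93, 0.395, 0.173 and 2.32 TPM in explants against 31.3, 101 and 123 TPM in livers. No macrophage marker was at 0 in any sample, while 0 to 2 of the 5 Kupffer markers were at 0 in an iris and 0 to 1 in an explant. The part of cell make-up in the class II differences was not tested.

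**Figure D3:**
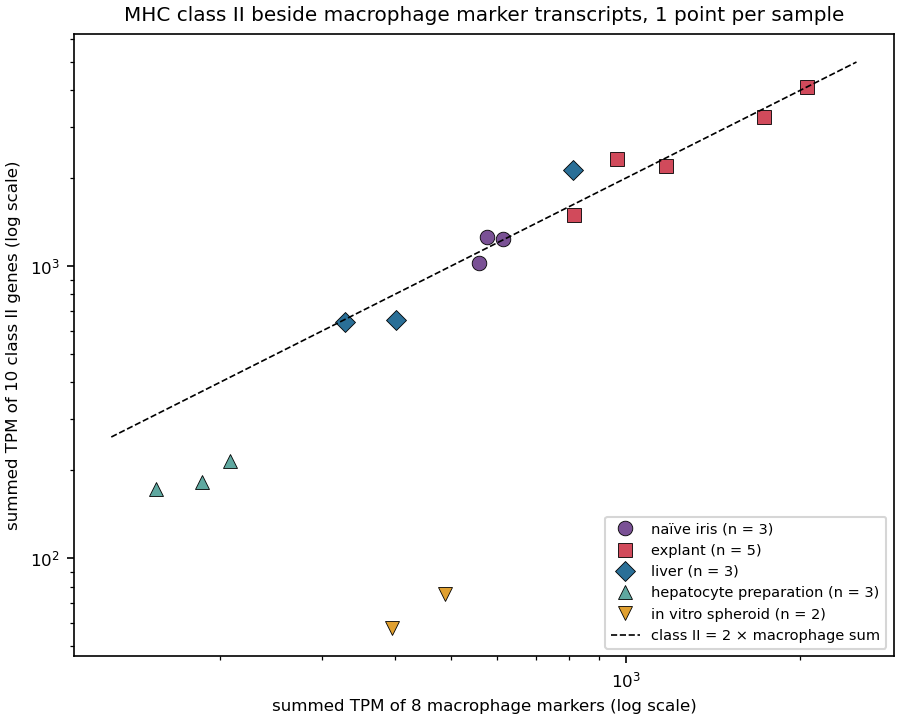
Summed TPM of the 10 class II genes (vertical, log scale) against summed TPM of 8 macrophage markers (horizontal, log scale), 1 point per sample, with a dashed line where the first is 2 times the second. Irises, explants and livers lie along the line, hepatocyte preparations lie below it and the 2 spheroid samples lie farthest below.

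Lymphocyte markers were also highest in the explants highest in class II. The 8 T and NK cell markers summed to 41.8, 171, 16.8, 29.6 and 230.0 TPM in explants, 7.34 to 13.4 TPM in irises and 167, 30.3 and 24.96 TPM in livers, so explants 2 and 6 and liver 1 led here too. The 8 dendritic cell markers summed to 21.8 to 56.96 TPM in explants and 16.3 to 42.5 TPM in irises, which overlapped. The 5 B cell markers summed to 6.32 to 13.9 TPM in explants, 4.63 to 6.45 TPM in irises and 47.01, 8.60 and 17.8 TPM in livers. At most 1 marker of each of these 3 lists was at 0 in an explant. Their part in the class II differences was not tested.

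*Ciita*, the class II transactivator, was low and was highest in the same explants as its targets. It measured 1.97, 6.04, 0.557, 3.34 and 7.92 TPM in explants, 0.228, 0.489 and 0.693 TPM in irises and 2.78, 0.268 and 0 TPM in livers, and had 1 and 0 counts in the spheroid samples. Explant 4 fell within the range of the irises and the other 4 explants lay above it. The log2 difference was 3.19 ± 0.90 (SE, edgeR, adjusted p = 0.0495), and 6 of the 8 fits with 1 sample left out lost the call. In those fits the adjusted p reached 0.172.

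*Nlrc5*, the class I transactivator, measured 4.13, 6.42, 1.60, 4.03 and 8.57 TPM in explants, 0.628, 0.923 and 1.43 TPM in irises and 8.20, 5.06 and 4.31 TPM in livers. Explants lay above irises and overlapped livers. The log2 difference of explants over irises was 2.44 ± 0.58 (SE, edgeR, adjusted p = 0.0263), and that of irises over livers -3.42 ± 0.37 (adjusted p = 3.33e-05). Hepatocyte preparations, at 3.48, 4.78 and 6.35 TPM, overlapped the livers.

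Of the classical class I heavy chains, *H2-K1* measured 368, 441, 283, 330.4 and 519 TPM in explants, 266, 261 and 255 TPM in irises and 792, 735 and 712 TPM in livers. In hepatocyte preparations it was at 718, 649.9 and 777 TPM and in spheroids at 573 and 430.2 TPM. The 5 explants lay above the irises and below the livers. The difference from irises missed the threshold (log2 difference 0.69 ± 0.21, SE, edgeR, adjusted p = 0.0674) and that from livers passed it (-1.75 ± 0.22, adjusted p = 5.38e-05). *H2-D1* kept the same order, at 241 to 441 TPM in explants, 189 to 222 TPM in irises and 456 to 574 TPM in livers. After subtraction the explants' *H2-K1*, at 376 to 891 TPM, overlapped the livers (log2 difference -0.19 ± 0.29, SE, limma, adjusted p = 0.66).

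*B2m*, the light chain shared by class I molecules, measured 1358, 1363, 1122, 1158 and 1556 TPM in explants, 1241, 1330.0 and 1215 TPM in irises and 2002, 1992 and 1865 TPM in livers. Explants and irises overlapped (log2 difference 0.16 ± 0.14, SE, edgeR, adjusted p = 0.483), and both were called lower than livers (-1.39 ± 0.15 and -1.52 ± 0.09, adjusted p = 2.57e-05 and 8.25e-07). For every 100 TPM of *B2m*, *H2-K1* and *H2-D1* together gave 35.4 to 39.3 TPM in irises, 46.7 to 61.7 TPM in explants and 59.8 to 68.2 TPM in livers. Explants lay above irises in this ratio and overlapped livers. On raw library totals *B2m* and *H2-D1* were not among the 3 members called lower in explants than in livers.

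**Figure D4:**
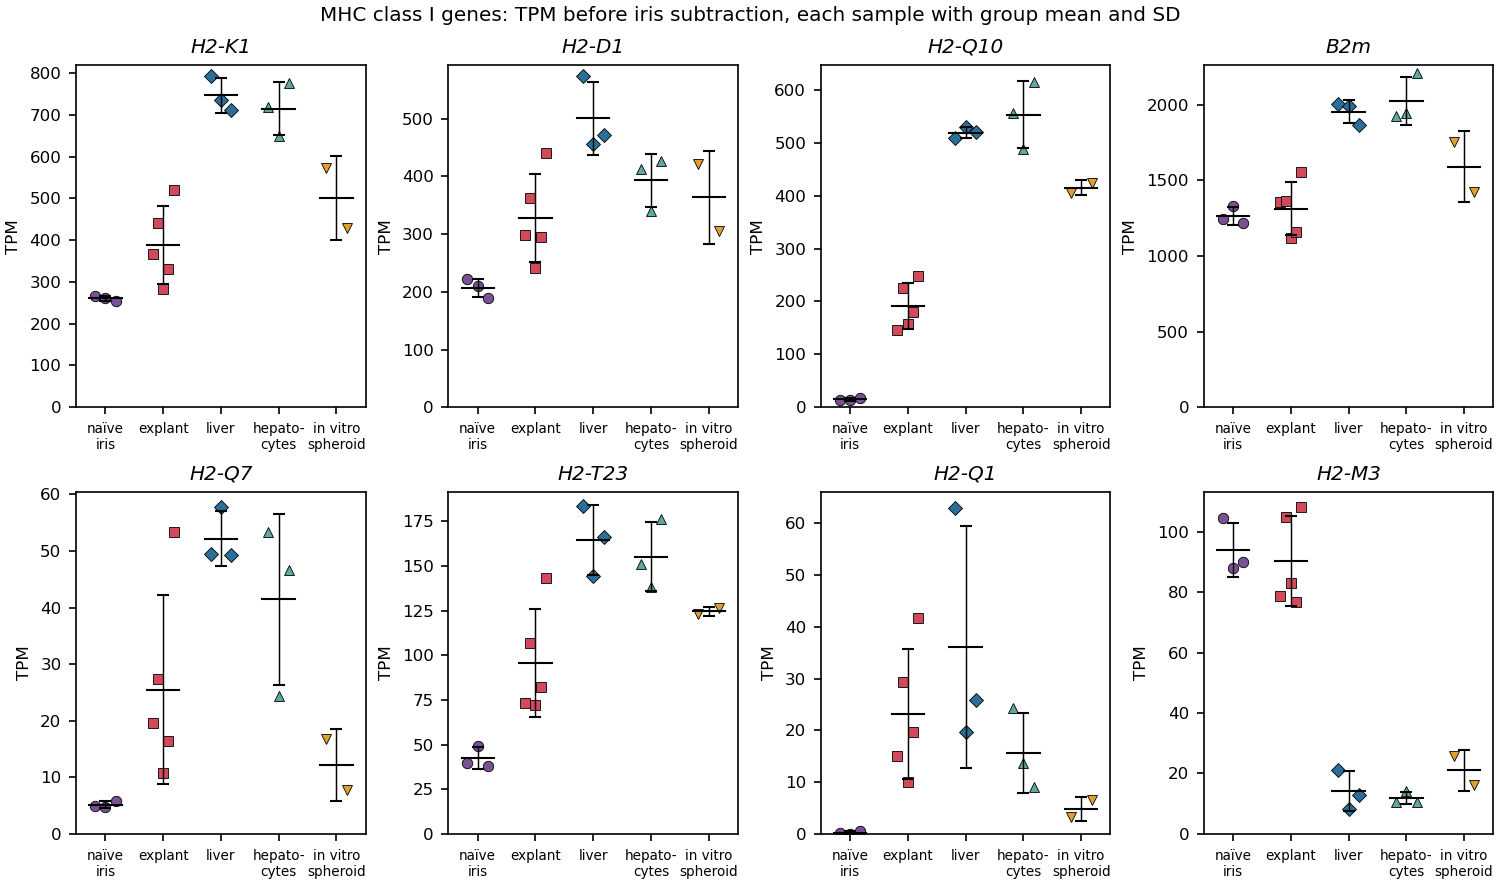
TPM before iris subtraction (linear vertical axes) of 8 class I genes in each sample, by group (horizontal axis), with the group mean as a bar and the SD as whiskers. *H2-Q10* and *H2-Q1* are low in irises and present in explants, while *H2-M3* is at 76.8 to 108 TPM in explants and at 8.32 to 21.3 TPM in livers.

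*H2-Q10*, the secreted class I molecule of hepatocytes, separated samples with liver cells from naïve iris. It measured 147, 225, 158, 180.2 and 248 TPM in explants, 12.8, 14.02 and 17.6 TPM in irises and 509, 530.2 and 520.1 TPM in livers. In hepatocyte preparations it was at 556, 488 and 615 TPM and in spheroids at 405 and 425 TPM. The log2 difference between explants and irises was 3.81 ± 0.27 (SE, edgeR, adjusted p = 0.000118), and no explant overlapped an iris or a liver. Its level over that of *H2-K1* was 0.0482 to 0.069 in irises, 0.399 to 0.558 in explants and 0.642 to 0.73 in livers. Hepatocyte transcripts were also read in the naïve irises, with a mean of 0.788% of the liver mean for *Hnf4a*, 2.85% for *H2-Q10* and 25.2% for *Alb*.

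Set against the 8 hepatocyte markers in the same sample, *H2-Q10* was slightly higher in explants than in livers. The log2 ratio of its TPM to their geometric mean was -0.60, -0.78, -0.69, -0.66 and -0.87 in explants and -1.11, -0.88 and -0.98 in livers. Explant 6 and liver 2 lay next to each other and the groups did not overlap. The irises, at -0.86, -0.96 and -0.66, overlapped the explants and liver 2. The mean difference was 0.27 (two-sided exact permutation test over 56 splits, p = 0.0357, the smallest p that 5 against 3 can give). After subtraction of the iris it was 0.32 (exact permutation p = 0.0357), and per *Hnf4a* count alone, without subtraction, 1.32 (exact permutation p = 0.0357). Per *Hnf4a* count the log2 ratio was 2.00 to 2.65 in explants, 0.97 to 1.18 in livers and 2.73 to 3.11 in irises, so the irises, whose part in the difference was not tested, lay above both. With 1 sample left out the difference ran from 0.21 to 0.32, with exact permutation p of 0.0571 and 0.0952, the smallest those sizes can give. Before subtraction the explants' *H2-Q10* was called lower than the livers' (-2.25 ± 0.21, edgeR, adjusted p = 9.74e-06), and after it the log2 difference was 0.37 ± 0.14 (limma, adjusted p = 0.126).

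In the Q region *H2-Q1*, *H2-Q4*, *H2-Q6* and *H2-Q7* were also called lower in irises than in livers. *H2-Q1* was at 15.04, 29.3, 10.1, 19.8 and 41.6 TPM in explants, at 62.8, 19.7 and 25.8 TPM in livers and at no more than 3 counts in any iris. Taking 3 counts in the iris sample with the lowest total as the floor, explants were at least 35.4-fold and livers at least 62.0-fold higher than irises. *H2-Q7* measured 19.7, 27.5, 10.8, 16.4 and 53.4 TPM in explants, 4.92, 4.82 and 5.83 TPM in irises and 49.5, 57.8 and 49.3 TPM in livers, and explants did not overlap irises (log2 difference 2.43 ± 0.56, SE, edgeR, adjusted p = 0.023). *H2-Q6*, whose sequence is close to that of *H2-Q7*, differed by 2.21 ± 0.54 (adjusted p = 0.0283). *H2-Q4* ran from 36.7 to 84.2 TPM in explants and from 25.002 to 30.5 TPM in irises and missed the threshold (1.04 ± 0.31, adjusted p = 0.0583).

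The nonclassical genes of the T and M regions did not share 1 pattern. *H2-T23*, which encodes Qa-1 and presents leader peptides to NK cell receptors, measured 73.3, 107, 71.9, 81.98 and 143 TPM in explants, 39.9, 49.3 and 37.8 TPM in irises and 183, 144 and 166 TPM in livers. Explants lay between the other tissues without overlap with either (explants over irises 1.30 ± 0.29, SE, edgeR, adjusted p = 0.0185). *H2-M3*, which presents N-formylated peptides, was at 104, 87.9 and 89.8 TPM in irises and 78.7, 105, 83.1, 76.8 and 108 TPM in explants against 21.3, 8.32 and 12.8 TPM in livers (irises over livers 1.85 ± 0.27, adjusted p = 0.000219). The pseudogene *H2-T-ps* was at 21.4 and 7.54 TPM in spheroids and at 2.62, 0 and 0 TPM in hepatocyte preparations (3.44 ± 0.94, adjusted p = 0.0328), and the call was lost in the 3 fits with 1 sample left out in which it was tested. *H2-T24* was called lower in spheroids, at 1.74 and 0.369 TPM against 6.42, 3.28 and 7.83 TPM in preparations (-2.74 ± 0.70, adjusted p = 0.0256). That call rested on 5 and 1 counts in the spheroid samples. In the 3 fits with 1 sample left out in which it was tested, the log2 difference ran from -4.02 to -2.16.

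The remaining class I members were low. *H2-Bl*, *H2-M6-ps*, *H2-Q2*, *H2-Q5* and *H2-T10* stayed at or below 6.14 TPM in every sample, and *H2-K2* ran from 13.2 to 24.9 TPM in explants and 15.9 to 26.9 TPM in irises. *H2-M2* was at 4.91, 5.61, 1.57, 4.14 and 30.8 TPM in explants and 32.8, 1.36 and 2.13 TPM in livers, with explant 6 and liver 1 high and the others low. *H2-T10* and *H2-Q2* were called lower in irises than in livers, *H2-T10* by -1.54 ± 0.41 on the log2 scale (SE, edgeR, adjusted p = 0.00842), and *H2-Q2*, at 2 counts or fewer in any iris, by at least 5.27-fold. *H2-T3* and *H2-Eb2* did not exceed 1.89 TPM in any sample.

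In peptide transport and loading, *Tap1* was the member called in explants against irises. It measured 26.1, 48.1, 32.97, 28.7 and 67.6 TPM in explants, 16.2, 18.99 and 15.4 TPM in irises, 21.1, 21.1 and 18.2 TPM in livers and 9.86 and 11.02 TPM in spheroids. All 5 explants exceeded every iris and every liver in TPM. The log2 difference from irises was 1.40 ± 0.36 (SE, edgeR, adjusted p = 0.0341), and that from livers 0.22 ± 0.34 (adjusted p = 0.582) before subtraction and 2.14 ± 0.34 (limma, adjusted p = 0.00461) after it. *Tap2* measured 90.7 to 107 TPM in explants, 65.8 to 78.3 TPM in irises and 33.1 to 41.9 TPM in livers. Its log2 difference from irises, 0.53 ± 0.12, had an adjusted p of 0.0176 and lay under the fold limit. *Tapbp* was at 317 to 372 TPM in explants and 328 to 361 TPM in irises, which overlapped, and at 166 to 192 TPM in livers. The edgeR comparisons did not call these gaps from the livers. Among the 4 light chain and loading genes the highest log2 difference was 0.10 for irises over livers. For explants over livers before subtraction it was 0.59. In both, 0 of the 4 were called higher, where 29.8% and 28.9% of all genes were.

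The immunoproteasome subunits were also highest in explants 6 and 2. *Psmb8* measured 74.01, 126, 75.4, 83.3 and 189 TPM in explants and 55.7, 52.5 and 53.4 TPM in irises (log2 difference 1.15 ± 0.36, SE, edgeR, adjusted p = 0.0675), and *Psmb9* 27.4, 49.2, 23.9, 29.03 and 75.9 TPM and 19.02, 17.2 and 20.4 TPM (1.26 ± 0.43, adjusted p = 0.0885). No explant overlapped an iris for either gene, and neither passed the threshold. *Psmb10* ran from 143 to 279 TPM in explants and from 134 to 149.8 TPM in irises and overlapped. *Psmb8* over *Psmb5*, the constitutive subunit it replaces, was 0.625 to 1.32 in explants, 0.367 to 0.437 in irises, 0.373 to 0.47 in livers and 0.298 and 0.15 in spheroids. *Psmb9* was called lower in spheroids than in preparations (-1.86 ± 0.24, adjusted p = 0.00184), at 13.1 and 8.14 TPM against 34.4, 31.3 and 25.6 TPM.

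**Figure D5:**
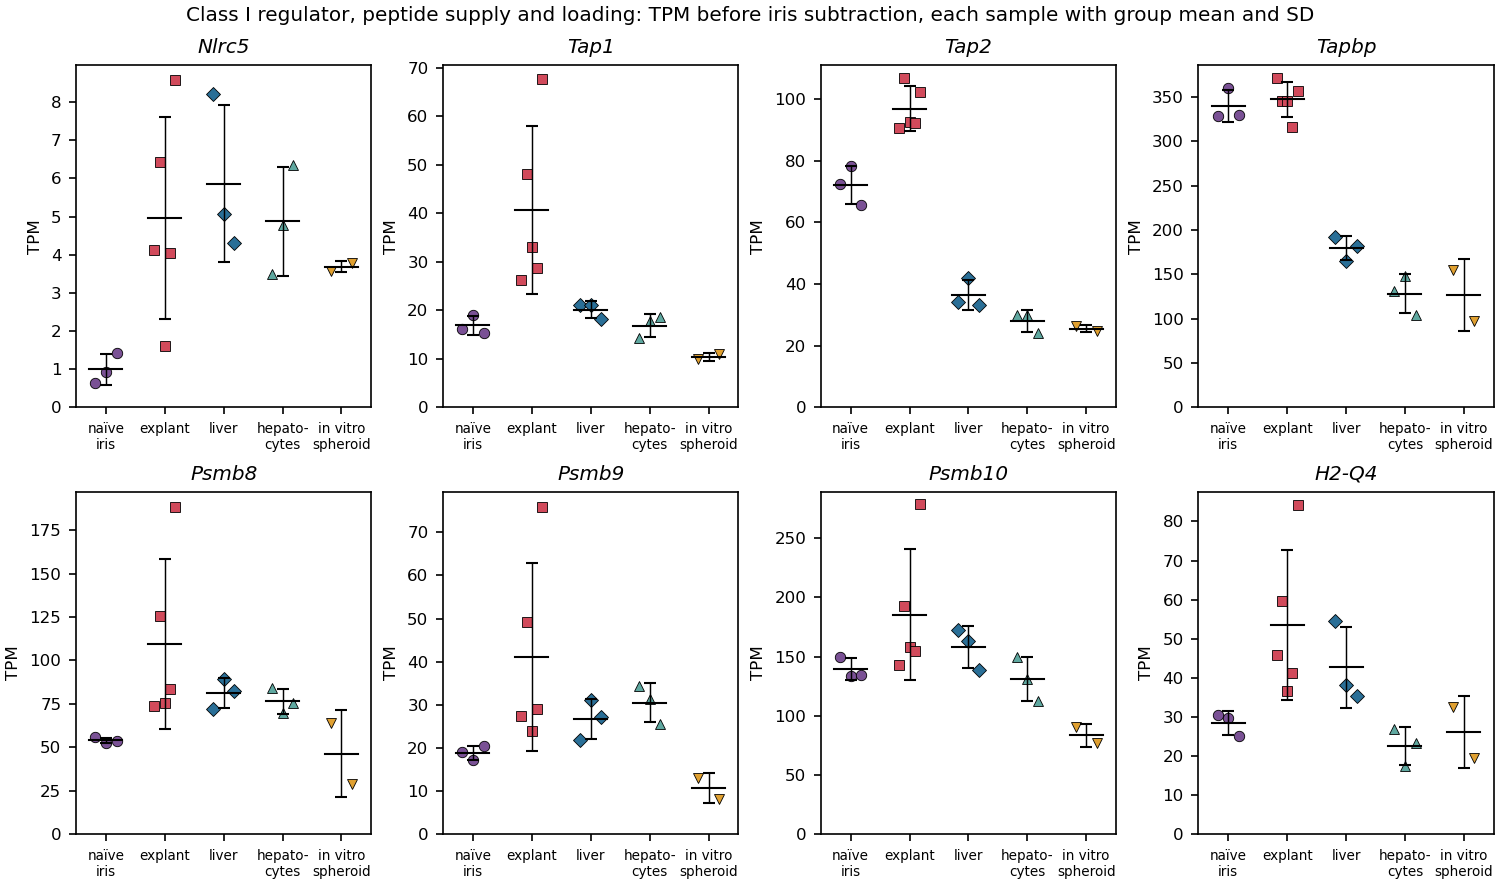
TPM before iris subtraction (linear vertical axes) of *Nlrc5*, 3 loading genes, 3 immunoproteasome subunits and *H2-Q4* in each sample, by group (horizontal axis), with the group mean as a bar and the SD as whiskers. Explants 2 and 6 are the highest explants for *Tap1*, *Psmb8* and *Psmb9*. In TPM, *Tap2* and *Tapbp* are lower in livers, hepatocyte preparations and spheroids than in irises and explants, and edgeR called neither gene higher in irises or explants than in livers.

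In explants against irises, where 6.16% of all genes were called higher and 0.316% lower, few genes around the pathway were called. Of 12 further genes of class I peptide supply and loading, 0 were called (edgeR; 3 higher and 0 lower at an unadjusted p under 0.05, 0 by DESeq2 and 0 by limma-voom). In irises against livers, where 22.1% of all genes were called lower, 7 of the 12 were, among them the constitutive proteasome subunits *Psmb5* (-1.42 ± 0.12), *Psmb6* (-1.25 ± 0.11) and *Psmb7* (-1.43 ± 0.10, SE, edgeR). In TPM these gaps were narrower. *Psmb5* ran from 120 to 146 TPM in irises and 190 to 198 TPM in livers. *Psmb6* ran from 191 to 222 TPM and 258 to 269 TPM, and *Psmb7* from 108 to 115 TPM and 158 to 175 TPM. Of 7 factors that bind the MHC promoter boxes, 0 were called in explants against irises (edgeR; 2 higher and 1 lower at an unadjusted p under 0.05, 0 by DESeq2 and 0 by limma-voom). Of 8 genes of class II endosomal processing 1 was called higher, *Ctss*, at 318, 497, 230.3, 319.8 and 629.5 TPM in explants and 126, 129 and 124 TPM in irises (1.79 ± 0.35, adjusted p = 0.0116).

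*Ifng*, the gene of interferon gamma, was near the floor. It was at 1.27 and 3.17 TPM in explants 2 and 6, at 0.658 TPM in hepatocyte preparation 2, and at 0 in every other sample. Its difference between explants and irises was not tested. Of 6 class I-like genes outside the H2 cluster 2 were called higher in explants than in irises (6.16% of all genes were), *Cd1d1*, which presents lipids (2.57 ± 0.55, adjusted p = 0.0159), and *Azgp1* (3.72 ± 0.33, adjusted p = 0.000291). Both were called lower than in livers before subtraction, *Cd1d1* by -3.18 ± 0.43 and *Azgp1* by -2.35 ± 0.26. Of 4 costimulation genes tested, 0 were called in explants against irises (edgeR; 1 higher and 0 lower at an unadjusted p under 0.05, 0 by DESeq2 and 0 by limma-voom). Of all genes, 6.16% were called higher there and 0.316% lower.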

How the data were processed

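Bulk RNA was sequenced after Smart-seq3 library preparation in 48 libraries, 3 technical libraries for each of 16 samples. Reads had been aligned with TopHat2 to mm10 and counted without regard to strand with featureCounts 1.4.6-p5 (per the file headers), with SAMtools among the submitters' tools. The deposited counts are whole reads per gene, without normalization, and the deposited TPM had been computed by the authors from them and scaled for length. The authors' deposited scores are TPM of explants after subtraction of the mean iris TPM times the iris share of that explant. The remainder is then divided by the share that is not iris. The column of explant 4 followed another rule (16.5% of its genes matched the formula), so the formula was applied anew to all 5 explants, with negative values set to 0. Duplicates had been removed with UMI-tools, as the study's methods state.

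Technical libraries were summed per sample, with 2718518 to 6789648 counts per sample, and this depth limits the precision of low genes. Groups came from the labels. Counts were filtered by filterByExpr, scaled by TMM and compared with edgeR 4.0.16 quasi-likelihood tests (R 4.3.3). Subtracted TPM were compared with limma 3.58.1 (moderated, with trend) on log2 of TPM plus 1, for genes at a mean of at least 1 TPM in either group, and fold changes of low genes are understated on that scale. P-values were adjusted by Benjamini-Hochberg over all genes tested. Calls needed an adjusted p under 0.05 and a log2 difference above 1. DESeq2 1.42.0, limma-voom, other scalings and filters, a replicate block and leaving out each sample were the alternatives. The tests were checked on simulated data.

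Members and lists were chosen with earlier results of these data known. Members at a group mean of at least 1 TPM are named. List genes are named where called, up to 10 per comparison by size of change, and the defining marker *Clec4f*, *Ifng* and hepatocyte markers were added as levels. The results of the interferon-gamma list other than *Ifng* are not reported here.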

Additional observations from a re-analysis of the deposited data

Results flagged for a closer look

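Of 37 members examined among the 5 explants, 2 had a single explant far from the others, where chance gives about 1 in 20 groups. *H2-M2* stood at 17.2 CPM (counts scaled by library size) in explant 6, with the other explants between 0.814 and 3.03 CPM. *H2-T22* stood at 83.9 CPM in explant 6, with the other explants between 37.1 and 47.4 CPM. Both were measured by Dixon's ratio of the gap to the range, which was 0.865 and 0.779 against a limit of 0.710.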

How the results depend on the processing

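No member called in a count comparison changed direction under another scaling. Among differences that limma called with TPM before subtraction, 4 had the other sign after it, where none of them was called: *H2-Q10*, *H2-Q7* and *H2-T24* against livers came to -1.46, -1.20 and 1.05, and *H2-Q10* against spheroids to -1.14, since the iris part is then left in. Members called in neither were not counted for sign. Members called higher in explants than in irises came to 3 with limma-voom. For irises against livers, 1 was higher with at least 10 counts in every sample and 10 were lower on raw library totals. For explants against livers, 5 were higher and 3 lower on raw library totals, and 1 was higher with at least 10 counts in every sample. Lower in hepatocyte preparations were 0 with limma-voom, 10 with no count filter and 7 with all 5 groups in 1 fit. Higher in spheroids were 0 with at least 10 counts in every sample. Higher in subtracted explants were 5 than livers and 8 than spheroids with the deposited values, and with TPM before subtraction 3 and 1 were lower. Above both irises and livers were 2 on raw library totals and 1 with no fold limit. Beyond that construction, the causes were not tested.

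With 1 sample left out, members called higher and lower ran from 2 to 17 and 0 to 0 for explants against irises, 1 to 2 and 17 to 23 for irises against livers, 2 to 6 and 8 to 13 for explants against livers, 0 to 0 and 0 to 5 for hepatocyte preparations, 0 to 0 and 7 to 10 for spheroids, 4 to 13 and 0 to 0 for subtracted explants against livers, and 7 to 18 and 0 to 0 against spheroids. Members above both tissues ran from 0 to 4, and the *H2-Q10* difference from 0.21 to 0.32. A lone sample left in a group is assumed to vary like the others.

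The correlations of deviations between same-numbered samples ran from -0.136 to 0.177 over 2 or 3 pairs a comparison, and no source ties the numbers to animals, so the numbers were not taken to pair the samples. With the replicate block, higher and lower members were 14 and 0 for explants against irises, 2 and 18 for irises against livers, 1 and 8 for explants against livers, 0 and 5 for hepatocyte preparations and 1 and 11 for spheroids, and 0 in both comparisons of subtracted explants.

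Over all genes, edgeR called 1032 higher and 53 lower in explants than in irises, against 541 higher with limma-voom, 613 and 31 with at least 10 counts in every sample, 22 lower with the replicate block, 86 lower on raw library totals and 460 lower with no fold limit. With at least 10 counts in every sample, 2302 and 2172 were called in irises against livers and 2282 and 2079 in explants against livers, and with no fold limit 5334 and 5362 were lower. In hepatocyte preparations the 50 and 283 became 117 and 530 with DESeq2, 9 and 11 with limma-voom, 191 and 1014 with no count filter, 30 and 139 with at least 10 counts in every sample, 217 and 923 with all 5 groups in 1 fit, and 96 higher with no fold limit, which gave 1526 higher in spheroids. For subtracted explants the deposited values gave 1136 and 299 against livers and 397 and 86 against spheroids, TPM before subtraction 8563 and 1666, and 7596 and 1238, and the replicate block 0 in each.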

Other observations

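In irises against livers 29.8% of all genes were called higher and 22.1% lower. Of 6 class I-like genes 2 were called higher in irises than in livers, *Procr*, the endothelial protein C receptor (4.94 ± 0.23 on the log2 scale, SE, edgeR, adjusted p = 1.48e-07), and *Mr1*, which presents vitamin B metabolites (1.76 ± 0.20, adjusted p = 5.17e-05). Called lower were *Azgp1* (-6.03 ± 0.11), *Cd1d1* (-5.70 ± 0.22) and *Fcgrt*, the neonatal Fc receptor (-1.35 ± 0.12). Of 4 costimulation genes tested 2 were called higher. *Cd274*, which encodes PD-L1, was called higher in irises (1.98 ± 0.28, adjusted p = 0.000218), at 22.5, 22.7 and 22.8 TPM against 4.81, 2.53 and 2.00 TPM in livers and 30.4, 18.6, 41.6, 21.4 and 25.6 TPM in explants, and so was *Icosl* (1.83 ± 0.49, adjusted p = 0.00819).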
